A study of Capra hircus with 36 samples.

Results

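The kidney libraries of goats from a high-altitude and a low-altitude population are described here across all miRNAs counted. They are the 6 kidney libraries of the 36 in the series, 3 from each population, and were taken by their tissue and altitude labels. The study sequenced small RNA from 6 tissues of 6 goats to ask how miRNA expression differs between animals living at 3000 m and at 600 m. The high-altitude goats were Tibetan goats kept by stocking and nomadism, and the low-altitude goats were Chuandong White goats reared at home. All were adult females of about 3 years, so each library of a group came from a different animal, and breed, rearing and altitude cannot be told apart in any difference between the groups. RNA came from frozen kidney pieces, libraries were made with a TruSeq small RNA kit and sequenced on an Illumina HiSeq, and each file gave raw read counts for 1391 mature miRNAs. The libraries are named high 1, high 2, high 3, low 1, low 2 and low 3, and miRNA names are written without the prefix chi-.

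A miRNA is a short RNA that guides silencing complexes to matching messenger RNAs, mostly through its seed, bases 2 to 8 from the 5′ end. It is cut from a hairpin precursor whose 2 arms each give a product, named 5p and 3p, and usually one arm is the more abundant. The mammalian kidney is known for miR-10a and miR-10b, made within the HOX gene clusters, for the miR-30 family of podocytes and tubules, for miR-194, miR-204 and miR-215 of tubules, and for the epithelial miR-200 family, while miR-126 marks endothelium and miR-143 and miR-145 mark smooth muscle.

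The kidney libraries held 9643978 to 11265856 counted reads, so that 3 reads, the floor taken for a miRNA with no read, equalled 0.266 to 0.311 CPM (counts scaled to library size). Of the 1391 miRNAs, 865 had a read in at least 1 kidney library, 387 had reads in all 6, and 276 had a mean of at least 10 CPM after TMM scaling, edgeR's correction for library composition. CPM values are on this scale, except that floors and bounds use library size alone and comparisons between tissues use TMM factors over all 36 libraries. miR-10b-5p was the most abundant miRNA in each library. It took 39.6% of reads in high 1, 21.4% in high 2, 39.8% in high 3, 40.2% in low 1, 31.3% in low 2 and 16.5% in low 3, with 95% Wilson intervals no wider than 0.0306 percentage points to either side. High 2 and low 3 thus had the lowest shares, 1 library of each population. Their TMM factors were 1.63 and 1.53, against 0.720 in high 1, 0.804 in high 3, 0.588 in low 1 and 1.18 in low 2. Over 303 miRNAs, high 2 was nearest to low 3 (Spearman's rho 0.870, across miRNAs, which are not independent), but low 3 was nearest to high 1 (0.897), and high 1 and high 3 to each other (0.921). The lowest correlation was between high 2 and low 1 (0.722).

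**Figure D1:**
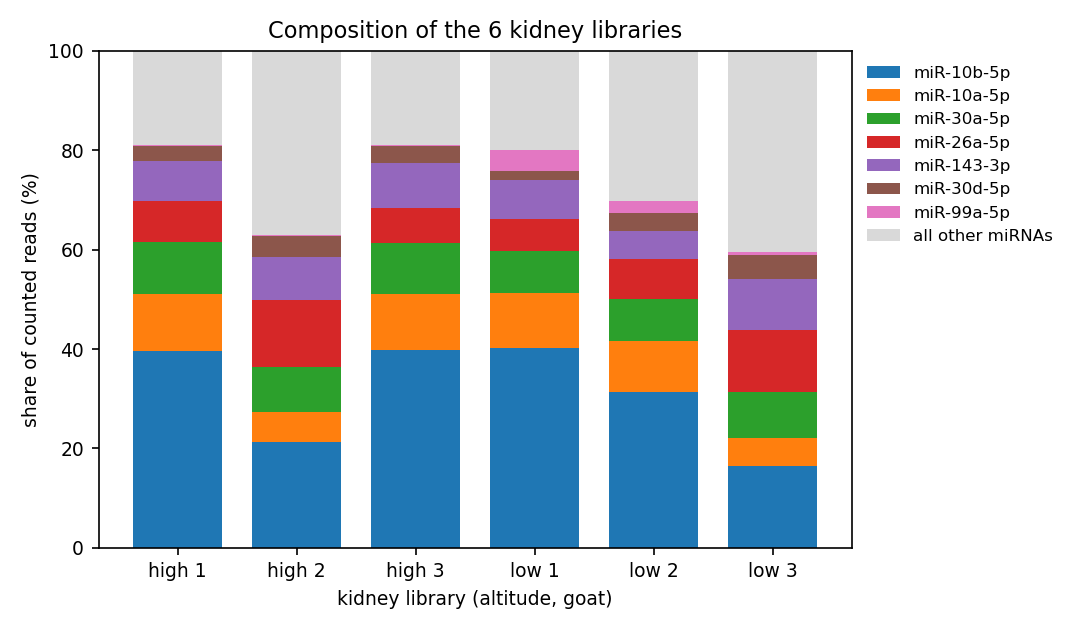
Share of counted reads (%) in each of the 6 kidney libraries for the 6 most abundant miRNAs, for miR-99a-5p and for all other miRNAs. miR-10b-5p took 21.4% of high 2 and 16.5% of low 3, and 31.3% to 40.2% of the other libraries; miR-99a-5p is visible only in the low-altitude libraries.

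Marker miRNAs were compared across the tissues. miR-30b-5p lay between 1740 and 3249 CPM in the 6 kidney libraries and at most at 1127 CPM in the 30 libraries of the other tissues. miR-200a-3p lay at 879 CPM or more in kidney and at most at 776 elsewhere, and miR-429-3p at 153 or more and at most at 141. miR-10a-5p, miR-10b-5p, miR-30a-5p, miR-30d-5p and miR-204-5p also had their highest tissue mean in kidney, although single libraries of other tissues overlapped. Other miRNAs of kidney epithelium were higher elsewhere: mean levels of miR-194-5p were 12851 CPM in liver and 2422 in kidney, of miR-215-5p 969 and 465, and in lung and kidney 368 and 57.6 for miR-200c-3p and 5158 and 1023 for miR-141-3p. Markers of other tissues were low: mean levels in kidney were 0.233% of the liver mean for the hepatocyte marker miR-122-5p, 0.222% of the muscle mean for miR-1-3p and 0.398% of the lung mean for miR-34c-5p of ciliated cells. The neuroendocrine marker miR-7-5p, looked at because the adrenal gland lies beside the kidney, had a kidney mean of 18.6 CPM.

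With edgeR's quasi-likelihood test over all 1391 miRNAs, 0 were DE miRNAs between the altitudes (0%) when called by an adjusted p under 0.05 with a log2 fold change of 1.5 or more in size, and the lowest adjusted p was 0.384. At an unadjusted p under 0.05 there were 64 (4.60%), 28 of them higher at high altitude (2.01%) and 36 lower (2.59%). Of the 865 miRNAs detected in kidney these are 3.24% and 4.16%, the shares beside which the lists below are given. At the same thresholds as the main test, edgeR's exact test gave 1 DE miRNA (0.0719%), its likelihood ratio test 5 (0.359%), and DESeq2 23 of the 838 it gave an adjusted p (2.74%), 13 higher (1.55%) and 10 lower (1.19%). Every difference below is therefore given with its values and was not called by the main test unless stated. Among the 276 miRNAs of at least 10 CPM, the groups did not overlap for 68 (24.6%), 28 higher at high altitude (10.1%) and 40 lower (14.5%). Scaled by library size alone, without TMM factors, 40 did not overlap (14.5%), 14 higher (5.07%) and 26 lower (9.42%). The median log2 fold change of these 276 was −0.09 with TMM, 0.00 with size factors of the RLE method and −0.19 with library size alone. An exact permutation test of 3 against 3 libraries cannot give a two-sided p under 0.1.

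A difference over several related miRNAs was in miR-99, miR-100 and miR-125, made from clusters they share with let-7. Together they took 2.06%, 2.25% and 2.91% of reads in the high-altitude kidneys and 10.3%, 9.27% and 5.13% in the low-altitude kidneys. By these shares of reads the groups did not overlap. By TMM the sums were 28662, 13754 and 36177 against 175586, 78741 and 33528 CPM, and low 3 lay below high 3. miR-99a-5p had 19971, 12222 and 29873 reads in high 1, high 2 and high 3 and 414137, 256201 and 73049 in low 1, low 2 and low 3. The groups did not overlap, and low 3 was the lowest of the low-altitude kidneys. Its mean was 2235 ± 1316 CPM in the high-altitude group and 31791 ± 35018 in the other (SD, n = 3 each), a log2 fold change of −3.83 ± 1.09 (SE; adjusted p = 0.733 with edgeR). DESeq2 called it, at an adjusted p of 0.0399, in a range of 0.0399 to 1 over the alternatives. Without low 1 the log2 fold change was −2.43. miR-100-5p had 17323, 14407 and 37476 reads in the high-altitude kidneys and 203018, 119747 and 44621 in the others, with a log2 fold change of −2.67, and of −1.28 without low 1. By CPM its groups overlapped, since low 3 lay below high 3; by reads per library they did not. miR-125a-5p had 119082, 93025 and 171310 against 271873, 397927 and 276066 reads, and miR-125b-5p 61816, 77294 and 83104 against 128636, 267429 and 122692, with log2 fold changes of −1.23 and −1.18; both overlapped by TMM and not by library size alone. These 4 products were lower at high altitude by TMM, RLE and library size alike. The other products of the same genes differed less: miR-99a-3p had a log2 fold change of 0.07 and miR-125b-3p of 0.20. let-7c-5p, whose gene lies between those of miR-99a and miR-125b in the RefSeq ARS1.2 annotation, had −0.59, with overlap. Of the 10 detected products of this set, 3 were lower at an unadjusted p under 0.05 (30%, beside 4.16% of all detected) and 0 higher (beside 3.24%). The median log2 fold change of the 7 with at least 10 CPM was −1.18, beside −0.09 over all 276. miR-99b-5p had 16412 reads in high 2 and 0 in each of the other 5 kidneys.

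miR-409-5p, from the imprinted DLK1-DIO3 region that holds a large miRNA cluster, had the most negative log2 fold change among miRNAs of at least 10 CPM whose groups did not overlap. It had 184, 120 and 271 reads in the high-altitude kidneys and 8489, 5921 and 1347 in the low-altitude kidneys. Each low-altitude kidney was above each high-altitude one, again with low 3 the nearest to them. The means were 20.6 ± 11.7 and 665 ± 713 CPM (SD, n = 3 each) and the log2 fold change was −5.01 ± 1.16 (SE; adjusted p = 0.630 with edgeR's quasi-likelihood test). Its adjusted p was 0.00209 with DESeq2, the lowest among the alternatives, which reached 1. With single libraries left out the log2 fold change was between −5.53, without low 3, and −3.70, without low 1. The other arm, miR-409-3p, was a little higher at high altitude, at 328 ± 34.3 against 201 ± 78.9 CPM, with overlap when scaled by library size alone. miR-412-5p and miR-369-3p, whose genes neighbour that of miR-409, had log2 fold changes of −0.11 and 0.64. conserve-chi-miR-496-5p, of the same region, had 16, 41 and 20 against 124, 89 and 367 reads, a log2 fold change of −2.90 ± 0.62. Over the 34 products of the region with at least 10 CPM, 12 had a positive and 22 a negative log2 fold change, with a median of −0.17. At an unadjusted p under 0.05, 1 of the 86 detected products was higher (1.16%) and 3 were lower (3.49%), beside 3.24% and 4.16% of all detected.

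Among epithelial miRNAs, miR-200c-3p separated the groups most evenly. It had 152, 247 and 176 reads in the high-altitude kidneys and 566, 1262 and 1316 in the low-altitude kidneys. With TMM scaling the 3 kidneys of each group lay close together, at 18.4 ± 2.32 and 92.5 ± 6.69 CPM (SD, n = 3 each), which is 5.04-fold lower at high altitude. By reads per library the low-altitude kidneys lay further apart, and the groups did not overlap either. The log2 fold change was −2.33 ± 0.36 (SE) and the adjusted p 0.384 with edgeR's quasi-likelihood test, 3.90e-16 with DESeq2 and between that value and 1 over the alternatives. It was −2.39 to −2.21 with any 1 kidney left out. In bulk tissue, fewer cells of a type and less RNA per cell cannot be told apart, here and below. miR-141-3p, whose gene lies next to that of miR-200c, had 9082, 5277 and 7627 against 12660, 9802 and 8365 reads, and its CPM values overlapped between the groups. miR-200a-3p was 939 ± 119 and 1735 ± 700 CPM, with no overlap by TMM but overlap by library size alone, and miR-429-3p 171 ± 28.6 and 219 ± 39.3, with overlap. All 7 members with at least 10 CPM had a negative log2 fold change, beside 152 of all 276, with a median of −0.55. That of miR-141-3p turned to 0.30 without low 1, and that of miR-200b-3p was −0.03. miR-200b-3p had reads in only high 2 (29155) and low 3 (29357), the libraries with the lowest shares of miR-10b-5p. Of the 9 detected products, 1 was lower at an unadjusted p under 0.05 (11.1%, beside 4.16% of all detected). miR-96-5p, of the miR-183, miR-96 and miR-182 cluster, had 18, 6 and 16 against 319, 195 and 46 reads, a log2 fold change of −4.01, and of −2.56 without low 1. Its neighbours miR-183-5p and miR-182-5p had log2 fold changes of −0.96 and −0.08.

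The tubule miRNAs divided. miR-215-5p had 12037, 8069 and 2904 reads in the high-altitude kidneys and 210, 2022 and 1098 in the low-altitude kidneys. Each high-altitude kidney was above each low-altitude one, by CPM and by reads per library. The means were 800 ± 668 and 86.5 ± 59.7 CPM (SD, n = 3 each), a log2 fold change of 3.21 ± 0.83 (SE; adjusted p = 0.717 with edgeR), and of 2.27 without high 1. miR-194-5p, whose gene is the neighbour of miR-215, had 17805, 36713 and 19164 against 11776, 28211 and 45794 reads, with overlap; the sign of its log2 fold change of −0.07 turned with RLE size factors (0.03). miR-204-5p stood at 707 ± 231 and 830 ± 292 CPM. miR-192, another tubule miRNA, was not among the names counted, and the tubule list also held the products of miR-211. Of the 8 detected products of the list, 1 was higher (12.5%, beside 3.24% of all detected) and 0 lower (beside 4.16%) at an unadjusted p under 0.05, and the median log2 fold change of the 3 with at least 10 CPM was −0.07. The 3 most abundant miRNAs, miR-10b-5p, miR-10a-5p and miR-30a-5p, showed no steady difference. miR-10b-5p stood at 392012 ± 228001 and 352522 ± 297475 CPM, and miR-30a-5p at 109825 ± 47369 and 92087 ± 44912. For both, the spread within a group was larger than the difference between the group means. With 1 library left out the log2 fold change of miR-10b-5p was between −0.28, without low 3, and 1.07, without low 1, and that of miR-10a-5p between −0.31 and 0.85, without the same libraries. Of the miR-30 family, miR-30f-5p did not overlap, with 8484, 8740 and 7258 against 11868, 56675 and 18012 reads, a log2 fold change of −1.60, and of −0.87 without low 2. miR-30b-5p did not overlap by TMM either, at 1806 ± 230 and 2735 ± 372 CPM, but overlapped by library size alone.

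Vessel and muscle miRNAs also differed in part. miR-126-5p, from an intron of an endothelial gene, had 56479, 63316 and 52650 reads in the high-altitude kidneys and 6467, 24964 and 32804 in the low-altitude kidneys. No low-altitude kidney reached the lowest high-altitude one. The means were 5745 ± 1664 and 1705 ± 525 CPM (SD, n = 3 each), which is 3.37-fold higher at high altitude, with a log2 fold change of 1.75 ± 0.40 (SE; adjusted p = 0.630 with edgeR). Its other arm went the other way, with overlap: miR-126-3p had 24809, 69803 and 25421 against 44946, 56275 and 106517 reads, a log2 fold change of −0.85. The muscle miRNAs miR-133a-3p and miR-133b-5p had the same count in every one of the 36 libraries and were read as 1 measurement, with 7907, 6331 and 11428 reads at high and 789, 3009 and 2464 at low altitude. Their groups did not overlap, at 902 ± 450 and 174 ± 47.3 CPM, a log2 fold change of 2.37 ± 0.52. miR-499-5p, a product of a slow and cardiac myosin gene, had 613, 291 and 1771 against 29, 177 and 57 reads, and did not overlap either, with a log2 fold change of 3.74, and of 2.74 without high 3. miR-1-3p, the most common companion of miR-133a in muscle, had 263, 71 and 304 against 198, 398 and 585 reads and was not higher, at 24.2 ± 17.1 and 34.0 ± 3.87 CPM. miR-208b-3p was 18.1 ± 3.81 and 5.91 ± 5.95 CPM. With the identical pair counted once, the detected striated muscle products summed to 1167, 447 and 1527 CPM in the high-altitude kidneys and 179, 286 and 206 in the low-altitude kidneys, and muscle levels of miR-133a-3p lay far above both, at a mean of 415307 CPM. Of the 9 detected, 3 were higher at an unadjusted p under 0.05 (33.3%, beside 3.24% of all detected), 2 of them the pair of identical counts. Traces of muscle in the kidney pieces were not tested as a source.

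Smooth muscle miRNAs were lower or level. miR-145-5p had 7014, 6089 and 5125 reads in the high-altitude kidneys and 10157, 26251 and 9865 in the low-altitude kidneys, and miR-145-3p 2926, 4209 and 3569 against 5428, 9405 and 8969. For miR-145-3p the groups did not overlap (349 ± 71.1 and 741 ± 180 CPM; SD, n = 3 each), and for miR-145-5p they overlapped by CPM. miR-143-3p, the main product of the neighbouring gene and the fifth most abundant miRNA in kidney, was level at 92953 ± 33923 and 83556 ± 44900 CPM, while its scarce other arm miR-143-5p had 114, 315 and 173 against 541, 784 and 524 reads. Of the 6 detected products, 2 were lower at an unadjusted p under 0.05 (33.3%, beside 4.16% of all detected). Among leukocyte miRNAs, miR-150-5p of lymphocytes had 1199, 2139 and 1471 against 208, 895 and 693 reads, 152 ± 14.6 and 49.3 ± 16.3 CPM. miR-223-3p of granulocytes had 121, 303 and 171 against 25, 78 and 0. Both were higher in each high-altitude kidney than in any low-altitude one, but miR-223-3p had an unadjusted p of 0.145 with edgeR's quasi-likelihood test. conserve-chi-miR-142-5p and miR-155-5p, which many white cells share, overlapped between the groups, and of the 11 detected leukocyte products 1 was higher at an unadjusted p under 0.05 (9.09%, beside 3.24% of all detected). Of the 7 leukocyte products with at least 10 CPM, 4 had a positive and 3 a negative log2 fold change. That of miR-146a-3p, the second most abundant of them, was −0.71, with overlap. The list's summed level overlapped too, at 7003, 2352 and 4578 CPM against 5470, 2341 and 3461. Of the red cell miRNAs, miR-144-3p had 205, 735 and 0 against 0, 256 and 0 reads.

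Several other miRNAs did not overlap. miR-504-5p had 1953, 4455 and 1632 reads in the high-altitude kidneys and 316, 1219 and 1238 in the low-altitude kidneys, a log2 fold change of 1.67 ± 0.39 (SE). miR-224-5p, from an intron of a GABA receptor gene, had 850, 2206 and 937 against 2346, 8732 and 3522 reads, a log2 fold change of −1.86 ± 0.48. miR-423-5p, let-7d-3p, miR-328-3p, miR-191-3p, miR-671-3p and miR-34c-5p were higher in each high-altitude kidney by CPM, with log2 fold changes of 1.49 to 2.52. With 1 library left out, that of let-7d-3p was 3.47 without low 2, of miR-671-3p 2.78 without low 3 and of miR-34c-5p 1.003 without high 3. conserve-chi-miR-2285a-3p was lower, at −2.18. miR-671-3p was scarce, at a mean of 3.89 CPM. For miR-423-5p and miR-191-3p the groups overlapped when scaled by library size alone. Some miRNAs had no read in one group. conserve-chi-miR-5011-3p had 0 reads in each high-altitude kidney and 50, 43 and 133 in the low-altitude kidneys, at least 75.8-fold lower at high altitude when 3 reads are allowed over the 3 libraries together, and at least 46.1-fold without low 3. It was the 1 DE miRNA of edgeR's exact test (adjusted p = 2.36e-05), and it passed with the likelihood ratio test and with DESeq2 as well. Floors and intervals cover counting error only. miR-502a-3p had 0, 0 and 0 against 13, 20 and 6 reads, and conserve-chi-miR-9301-3p 3, 13 and 6 against 0, 0 and 0, both near the floor.

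**Figure D2:**
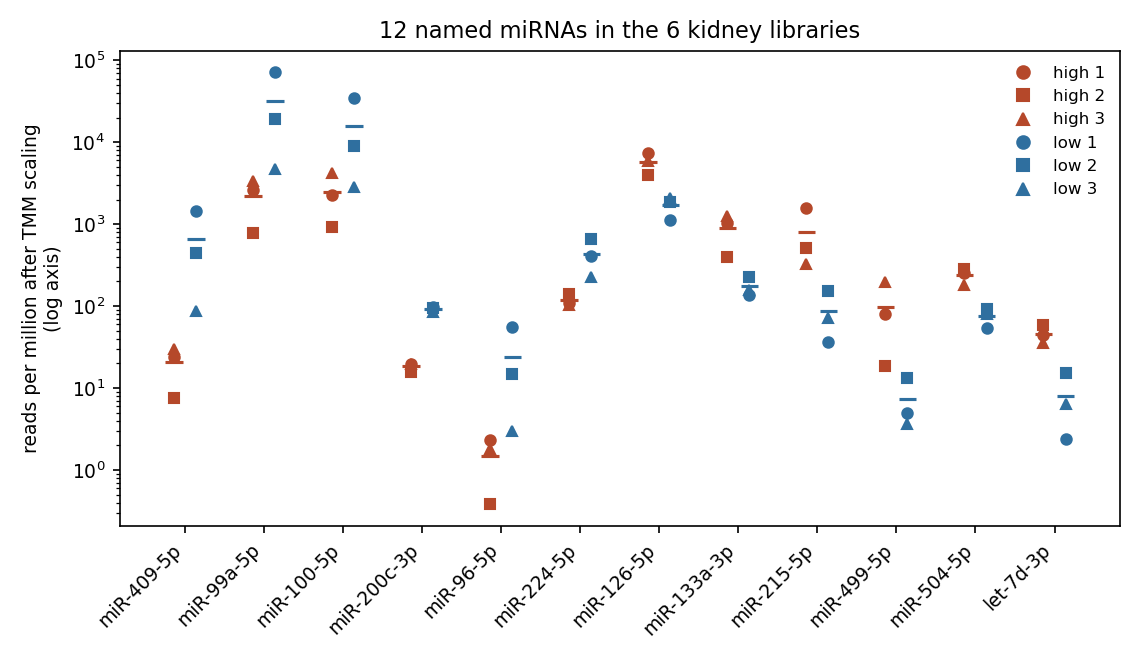
CPM after TMM scaling (log axis) of 12 named miRNAs in the 6 kidney libraries; each point is 1 goat and bars are group means of 3. For miR-200c-3p the groups lay at 18.4 ± 2.32 and 92.5 ± 6.69 CPM (SD), with little spread within each, while for miR-409-5p and miR-99a-5p the low-altitude kidneys spread widely and low 3 lay nearest the high-altitude kidneys.

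The arms of miR-409 and of miR-126 had log2 fold changes of opposite sign and those of miR-99a of unequal size, so the 5p to 3p ratio was compared for the 147 precursors whose arms both had a mean of at least 10 reads. This comparison was added after the data were seen. It needs no scaling between libraries, since both arms are read in the same one. By limma on the log2 ratio, 1 precursor passed an adjusted p under 0.05 (0.680%), 26 passed an unadjusted p under 0.05 (17.7%; 9 with a higher and 17 with a lower 5p to 3p ratio at high altitude), and the groups did not overlap for 38 (25.9%). The one that passed was let-7d. let-7d-5p had 946, 2699 and 709 reads in the high-altitude kidneys and 571, 3652 and 3628 in the low-altitude kidneys; let-7d-3p had 346, 916 and 322 against 14, 202 and 100. The ratio fell at high altitude by 3.50 ± 0.45 on the log2 scale (SE; adjusted p = 0.0430 with limma), from 39.4, 18.0 and 36.1 in the low-altitude kidneys to 2.73, 2.95 and 2.20 in the high-altitude kidneys. All 3 kidneys of each group lay on their own side. The adjusted p was between 0.0174 and 0.162 over the alternatives, and the call was lost without high 1 (0.147), high 2 (0.0920), high 3 (0.158) or low 1 (0.102), and without high 2 and low 3 together (0.0939), while the log2 difference stayed between −3.86 and −3.29.

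For miR-409 the log2 ratio of 5p to 3p reads was −3.59, −5.48 and −3.55 in the high-altitude kidneys and 2.37, 1.19 and −0.53 in the low-altitude kidneys. By the names counted, the 5p product was thus the more abundant in low 1 and low 2, and the 3p product in the high-altitude kidneys and low 3. Whether the arm in a name is the side of the hairpin was not tested, for this and the other precursors. miR-671 had −0.70, −1.86 and −2.05 against 3.23, 2.30 and 1.11, and miR-126 had 1.19, −0.14 and 1.05 against −2.80, −1.17 and −1.70. In miR-671 the more abundant arm differed between the populations in every kidney. Its 3p product was scarce, with 41, 85 and 76 reads in the high-altitude kidneys and 5, 13 and 36 in the low-altitude kidneys. miR-494-5p was scarce, with 2 to 33 reads, and its log2 ratio to miR-494-3p was −5.75 to −4.59 at high and −8.47 to −7.72 at low altitude. The adjusted p with limma was 0.0611 for miR-494, 0.0732 for miR-409 and miR-671 and 0.188 for miR-126. For miR-99a the log2 ratio was 5.37, 3.21 and 5.80 against 10.3, 8.41 and 5.84, so that low 3 lay just above high 3.

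**Figure D3:**
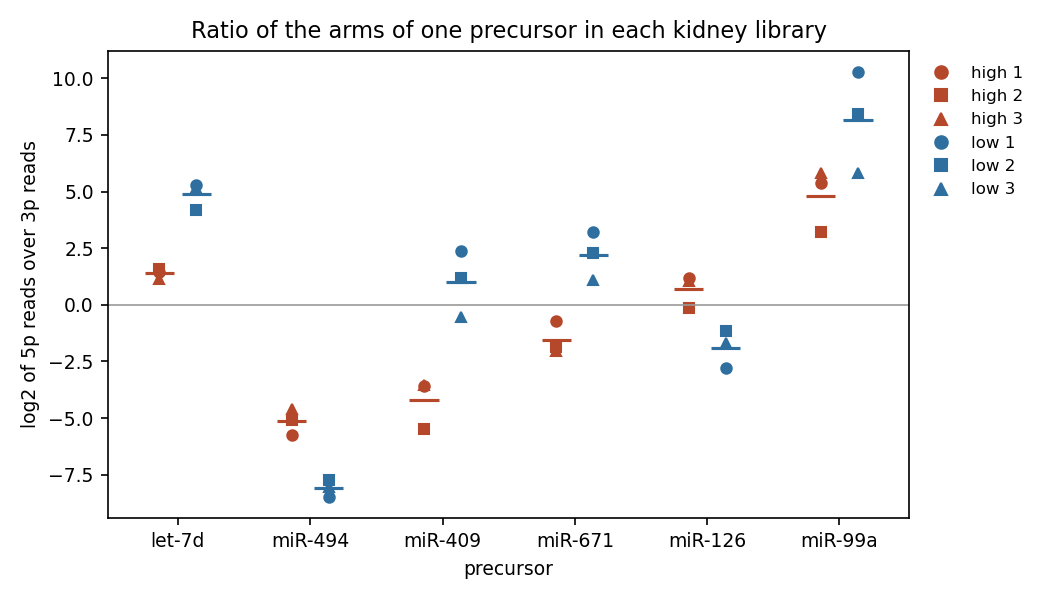
Log2 of 5p reads over 3p reads (0.5 added to each) for 6 precursors in the 6 kidney libraries; each point is 1 goat and bars are group means of 3. In miR-671, whose 3p product had only 5 to 85 reads per kidney, all 3 high-altitude kidneys lie below 0 and all 3 low-altitude kidneys above it. In let-7d the groups are separated by a log2 difference of −3.50.

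Some names took turns between libraries, so a difference in 1 name alone is not read here as a difference in level. Whether the same reads were given to 1 name per library was not tested. Exactly 1 of miR-199b-3p and miR-199c-3p had reads in each of the 36 libraries of the series. In kidney, miR-199b-3p had 31118, 108182 and 0 reads in the high-altitude kidneys and 0, 0 and 64711 in the low-altitude kidneys, and miR-199c-3p had 0, 0 and 27044 against 15023, 31473 and 0. Their sum was 4643 ± 1993 CPM in the high-altitude and 3046 ± 985 in the low-altitude kidneys, with overlap, close in each library to the reads of miR-199a-3p (31296, 108670 and 27233 against 15124, 31734 and 64999). The arms of miR-107, a relative of miR-103 known from hypoxia, did the same in 34 of the 36 libraries, with reads under both names in the other 2. miR-107-3p had 0, 0 and 0 against 4210, 0 and 0 reads, where miR-107-5p had 7633, 24894 and 6884 against 0, 4897 and 12714. Summed over both names, miR-107 was 1113 ± 419 and 638 ± 238 CPM, with overlap. In 35 of the 36 libraries exactly 1 of conserve-chi-miR-486-5p, a red cell and muscle miRNA, and predicted miR-136-5p, a name without a match in miRBase that is counted apart from miR-136-5p, had reads. Predicted miR-136-5p had 6324 reads in high 2 and 0 in the other 5 kidneys, and high 2 was the 1 kidney with 0 reads of conserve-chi-miR-486-5p, which had 6319 and 8441 reads in high 1 and high 3 and 3705, 5366 and 3680 in the low-altitude kidneys. The sum was 722 ± 284 and 427 ± 201 CPM. In all, 27 miRNAs had at least 1000 reads in one kidney library and 0 in another.

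**Figure D4:**
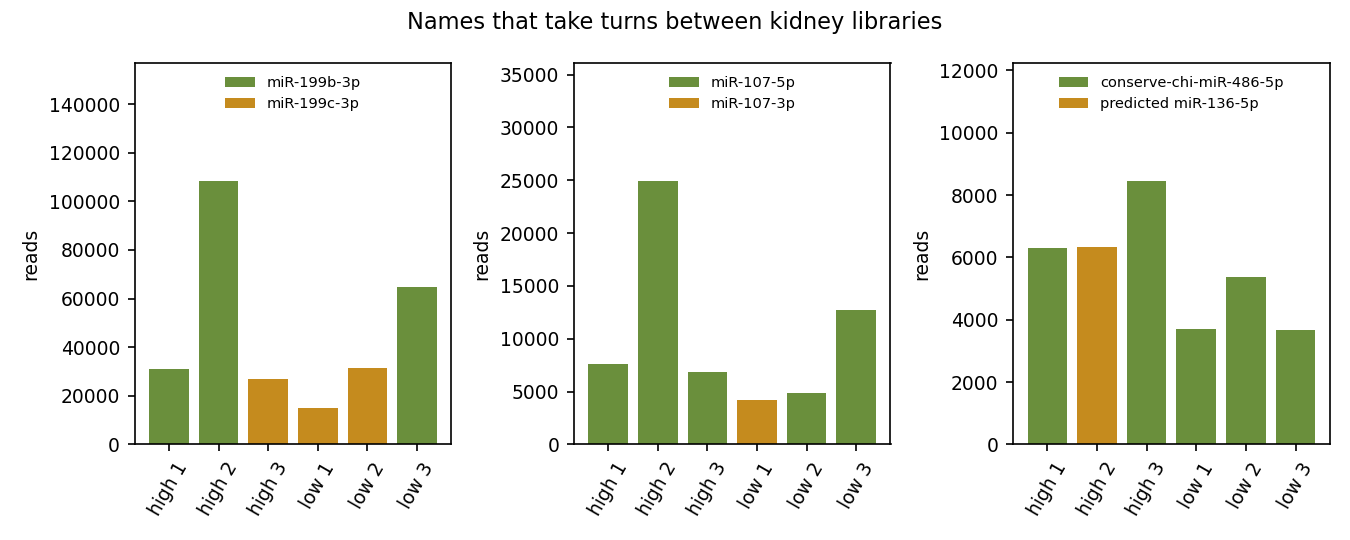
Reads per kidney library for 3 pairs of names, stacked; each bar is 1 library. In each pair and each kidney library shown, reads stand under 1 name only, and miR-107-3p has reads in low 1 alone, where miR-107-5p has 0.

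The study gives a direction in kidney to some miRNAs, which it chose on these samples, so that this list is not independent of them. The list holds 7 miRNAs, those it names with a direction, and is only a part of the kidney miRNAs it reports. For miR-409-5p and conserve-chi-miR-5011-3p the groups did not overlap, as given above, and miR-107-3p and predicted miR-136-5p were under names that took turns. miR-376b-3p had 0, 266 and 97 reads in the high-altitude kidneys and 0, 0 and 0 in the low-altitude kidneys, and miR-30d-3p had 1, 2158 and 4 against 0, 0 and 3, nearly all in high 2. Predicted miR-77-3p, another name without a match in miRBase, had 19, 23 and 0 against 461, 7 and 350 reads, with low 2 among the high-altitude values. At an unadjusted p under 0.05, 2 of the 7 were higher and 2 lower (28.6% each, beside 3.24% and 4.16% of all detected). Sequences follow for some of the miRNAs named here, as the study lists them among its primers for quantitative PCR. They are not read from the sequenced products. Bases are written as in DNA from the first base of the entry, and capitals mark bases 2 to 8. These are the seed only where an entry starts at the 5′ end of its miRNA, which was not tested. All differ in these bases.
miR-409-5p: aGGTTACCcgagcaactttgcat
conserve-chi-miR-5011-3p: tATATATAcatacacaccatgt
predicted miR-77-3p: aAAAACCCagatgaactttttt
miR-199c-3p: aCAGTAGTctgcacattggtt
let-7a-3p: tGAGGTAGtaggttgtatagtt
The entry under let-7a-3p carries the let-7 seed at these bases, and that seed belongs to the 5p product of let-7 precursors. Whether the reads counted under a name match its primer was not tested. The arm in a name is therefore read here as the name counted and not as the side of the hairpin.

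Of the 18 detected products known from work on hypoxia, 0 were higher (beside 3.24% of all detected) and 1 was lower (5.56%, beside 4.16%) at an unadjusted p under 0.05, with a median log2 fold change of −0.47 over the 12 with at least 10 CPM. 4 of the 18 are names that took turns, and with such names summed the median turned to 0.14. conserve-chi-miR-210-3p, the best known of them, had 144, 350 and 0 reads at high and 208, 0 and 420 at low altitude. For the list known from renal fibrosis the median was −0.03, and −0.26 with alternating names summed, with 0 higher and 1 lower of 13 detected at an unadjusted p under 0.05 (7.69%, beside 4.16% of all detected), and its most abundant member miR-21-5p stood at 5186 ± 1066 and 7087 ± 415 CPM. Of the 8 HOX cluster products, the median of 6 was 0.00, and 0 passed an unadjusted p under 0.05 (beside 3.24% higher and 4.16% lower of all detected). The miR-30 family had a median of 0.06, let-7 and miR-98 −0.17, the clusters of miR-17 and its relatives −0.22, the miR-15 and miR-16 family −0.12, the miR-23, miR-24 and miR-27 clusters −0.42 and the miR-181 family −0.17. In these 6 lists at most 1 product was higher and at most 1 lower at an unadjusted p under 0.05, the largest share being 8.33% in the miR-30 family (beside 3.24% and 4.16% of all detected). The endothelial list held the miR-126 products alone (median 0.45), the medians of the smooth muscle, leukocyte and striated muscle lists were −1.16, 0.01 and 1.99, the last with the identical pair counted once, and the hepatocyte, airway and neuroendocrine lists held 1, 1 and 2 products with at least 10 CPM in kidney, with medians of 1.20, 1.89 and −0.79. The hepatocyte value is that of miR-122-5p alone, which was −0.0770 without high 1. Of the 4 detected products of the red cell list, 0 were higher and 0 lower at an unadjusted p under 0.05 (beside 3.24% and 4.16% of all detected). For all 22 lists 0 members passed the main thresholds with edgeR's quasi-likelihood test.

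Kidney was set against the other 5 tissues of the same goats, to see where its altitude difference was its own. In 1 edgeR quasi-likelihood fit over all 36 libraries, with a term for each goat, the altitude difference in kidney departed from its mean over heart, liver, lung, muscle and spleen for 1 miRNA (0.0719%), with 23 at an unadjusted p under 0.05 (1.65%); DESeq2 gave 7 (0.503%). The 1 miRNA was miR-376b-3p (adjusted p = 0.0471). It had 0, 266 and 97 reads in the high-altitude kidneys and none in the 3 low-altitude kidneys, at least 120-fold higher at high altitude against 3 reads over the group (at least 46.3-fold without high 2), while each of the 30 libraries of the other tissues had reads, at most 9.79 CPM in those from high-altitude goats and 2.39 to 213 CPM in the rest. The call did not hold in 7 of 10 alternatives, with adjusted p from 4.73e-07 to 0.671. It was lost without the goat of high 2 (0.199), high 3 (0.605), low 1 (0.173), low 2 (0.671) or low 3 (0.0846). The log2 difference, fitted against 0 reads in the low-altitude kidneys, lay between 10.7 and 12.3 over the 10 alternatives.

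Of the 276 miRNAs with at least 10 CPM in kidney, 22.1% to 31.9% did not overlap between the altitudes in each of the other 5 tissues. Of the 68 that did not overlap in kidney, 54 did not overlap in the same direction in at least 1 other tissue (79.4%), 24 in at least 3 (35.3%) and 10 in at least 4 (14.7%). Of the 208 that overlapped in kidney, 134 did not overlap, in either direction, in at least 1 other tissue (64.4%), 18 in at least 3 in 1 direction (8.65%) and 4 in at least 4 (1.92%). miR-409-5p did not overlap between the altitudes, lower at high altitude, in 4 of the 5 other tissues, with 0.598 to 15.4 CPM in their 15 high-altitude and 4.22 to 303 CPM in their 15 low-altitude libraries. miR-99a-5p and miR-100-5p were lower without overlap in 3 of the 5, let-7d-3p and miR-671-3p were higher without overlap in 4, and miR-191-3p in all 5. The let-7d arm ratio was lower without overlap in 4 of the 5, and 8 of the 147 precursors were so in at least 4. In the same direction as in kidney, miR-504-5p and miR-223-3p did not overlap in 4, and miR-224-5p, miR-328-3p, miR-423-5p, miR-150-5p, miR-143-5p and conserve-chi-miR-2285a-3p in 3. Some kidney differences were seen in fewer tissues. miR-126-5p was higher, and miR-96-5p and conserve-chi-miR-5011-3p were lower, without overlap in 1 of the 5. miR-133a-3p was higher without overlap in 0 and lower in 1, and miR-499-5p was higher in 1 and lower in 1. miR-200c-3p was lower in the high-altitude kidneys, whereas it was higher without overlap in 2 of the 5 other tissues and lower without overlap in 0, and miR-215-5p overlapped in all 5. The difference between kidney and the other tissues had an adjusted p of 1 for both with edgeR's quasi-likelihood test, and of 0.0147 for miR-200c-3p with DESeq2.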

How the data were processed

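Small RNA of the 6 kidney libraries (3 goats at each altitude) was compared. Each deposited file holds read counts of 1391 mature miRNAs, which the authors made with base calling by CASAVA 1.8 and mapping by Bowtie, as their processing notes state. Counted reads were 9643978 to 11265856 per library, with Wilson intervals of at most 0.0306 percentage points for shares. No pair of kidney libraries held duplicate counts (lowest chi-square per degree of freedom 325).

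Computation used R 4.3.3, edgeR 4.0.16, limma 3.58.1, DESeq2 1.42.0, Python 3.11.15 and matplotlib 3.10.9. It was run on simulated data whose dispersion, the spread beyond counting error, was lower than in the kidney libraries (common dispersion 1.16). How the tests behave at the spread of these libraries was not tested. DE miRNAs had an adjusted p (Benjamini-Hochberg) under 0.05 with a log2 fold change of 1.5 or more in size in edgeR's quasi-likelihood test with TMM. 1 contrast over 36 libraries, with goat terms, set kidney against the other 5 tissues. Arm ratios (0.5 added, both arms at a mean of 10 reads) were tested with limma, after the data were seen. Folds against a group with no reads use 3 counts over the group. Neighbouring genes come from the RefSeq annotation of ARS1.2, a later release than the study's ARS1.

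Named miRNAs were those with the 15 highest mean CPM, the 10 largest and 10 smallest log2 fold changes among those of at least 10 CPM without overlap, those past both thresholds with edgeR's quasi-likelihood or exact test or DESeq2, the study's kidney miRNAs with their other arms, the 2 most abundant members of each list, and the 5 lowest p in the contrast of kidney against other tissues with any that passed it. Others, such as miR-1-3p, miR-494-3p, miR-223-3p and further list members, were named after their values were seen. The 22 lists are kidney tubule, miR-30, HOX cluster, miR-200, hypoxia, fibrosis, let-7, miR-99, miR-100 and miR-125, miR-17 and its relatives, miR-15 and miR-16, miR-23, miR-24 and miR-27, miR-181, DLK1-DIO3, endothelial, smooth muscle, leukocyte, red cell, striated muscle, hepatocyte, airway, neuroendocrine and the study's kidney miRNAs. Lists and members were chosen with earlier results known.

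Alternatives were DESeq2, edgeR's exact and likelihood ratio tests, RLE and library size scaling, filters, fold change minima, identical counts once, 1 fit over 36 libraries, a replicate block, robust dispersion and each library left out. List medians with identical counts once or alternating names summed, the tally over other tissues, alternating names summed, high 2 and low 3 left out together, and unevenly present miRNAs left out were chosen after seeing the data.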

Additional observations from a re-analysis of the deposited data

Results flagged for a closer look

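miR-376b-3p is given here because its altitude difference in kidney departed from the mean of the other 5 tissues by a test of that difference (adjusted p = 0.0471, edgeR's quasi-likelihood test of the contrast over 36 libraries). It had 0, 266 and 97 reads in the high-altitude kidneys, so that 2 of 3 had reads, and 0, 0 and 0 in the low-altitude kidneys. Over 10 alternatives the adjusted p was 4.73e-07 to 0.671 and under 0.05 in 3: with DESeq2, without the goat term (0.0111) and without high 1 (0.0411). The log2 difference, fitted against 0 reads in the low-altitude kidneys, lay between 10.7 and 12.3 over them. The cause was not tested.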

How the results depend on the processing

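The count of 0 DE miRNAs in kidney with edgeR's quasi-likelihood test (64 at an unadjusted p under 0.05) was also 0 with RLE size factors, library size alone, filterByExpr, a minimum of 3 reads, identical counts taken once, robust dispersion, other fold change minima, alternating names summed, high 2 and low 3 left out together, and each kidney library left out in turn (0 to 0). It was 23 with DESeq2, 1 with edgeR's exact test, 5 with its likelihood ratio test, 2 in 1 fit over 36 libraries (miR-409-5p and miR-376b-3p) and 2 when miRNAs with 0 beside at least 100 reads in a group were left out (miR-200c-3p and conserve-chi-miR-5011-3p). The count at an unadjusted p under 0.05 was 45 to 92 over the alternatives and 47 to 67 with a library left out.

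The count of miRNAs whose altitude difference in kidney departed from the other tissues was 1. It was 7 with DESeq2, 0 with RLE size factors, 0 with filterByExpr, 1 without the goat term and 0 to 2 with a goat left out: 0 without high 2, high 3, low 1 or low 2, and 2 without low 3, which were conserve-chi-miR-92-1-5p and conserve-chi-miR-92-1-3p and not miR-376b-3p. The count of precursors in kidney whose arm ratio differed by limma was 1. It was 1 with a pseudocount of 2 and with a mean of 50 reads, 2 without high 2 and low 3 together, and 0 to 5 with a library left out: 0 without high 1 or high 3, and 5 without low 3. let-7d was among those called with the pseudocount of 2, with the mean of 50 reads, without low 2 and without low 3. It was not among them without high 2, without low 1, or without high 2 and low 3 together, where other precursors were called.

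Same-numbered goats are different animals, so the replicate number was no pairing. Deviations from the group means correlated at −0.27 on average between same-numbered libraries and 0.137 between the others, and 0 of 3 high-altitude libraries correlated best with their own number. With the number as a block, the kidney count was 0, the arm ratio count 0, and the log2 fold change of conserve-chi-miR-486-5p, a name that took turns with another, −0.52.

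Of 1538 log2 fold changes of 78 named miRNAs under the alternatives, 1495 kept their sign, 36 turned, in 19 miRNAs, and 7 were 0, in 4 miRNAs; 55 miRNAs kept theirs throughout. The value was 0 without low 1 for miR-107-3p, and without high 2, alone or together with low 3, for predicted miR-136-5p, predicted miR-136-3p and conserve-chi-miR-2474-3p, which then had no read in either group. Those that turned with a library left out ranged over: miR-10a-5p −0.31 to 0.85, miR-10b-5p −0.28 to 1.07, let-7a-5p −0.76 to 0.13, miR-411a-5p −0.42 to 0.0117, miR-22-3p −0.51 to 0.0150, miR-7-3p −0.71 to 0.0513, miR-26a-5p −0.0126 to 0.34, miR-194-5p −0.17 to 0.12, miR-127-3p −0.18 to 0.41, miR-122-5p −0.0770 to 2.12, conserve-chi-miR-486-5p −0.0558 to 1.05, miR-30a-5p −0.00581 to 0.73, miR-146a-3p −1.15 to 0.0115, miR-141-3p −0.96 to 0.30, miR-143-3p −0.0141 to 0.67, conserve-chi-miR-181a-5p −0.16 to 0.20, miR-204-5p −0.48 to 0.11. Without high 2 and low 3 together, miR-22-3p was 0.0470, miR-194-5p 0.0803 and miR-449a-3p 0.18. miR-194-5p was 0.0265 with DESeq2 and 0.0266 with RLE size factors. With library size alone, miR-127-3p was −0.0472, miR-27b-3p −0.0399 and conserve-chi-miR-181a-5p −0.20. The cause was not tested. Floors of 3 reads limit the folds of miRNAs at 0 in a group.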
